A study of Mus musculus with 11 samples.

Results

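The surface markers by which mouse haematopoietic stem cells (HSCs) and early progenitors are told apart were examined here as transcripts. The rule listed 10 names and took the rows with those symbols from the files, with 1 transcript per gene, the one with the highest mean over the 7 size-gated libraries. Slamf2 is another name of Cd48 and has no row of its own, so 9 distinct genes were measured of 24064 in the gated files: Kit, Ly6a, Slamf1, Cd48, Procr, Cd34, Flt3, Cd27 and Cxcr4. All 9 also have a row among the 23420 gene symbols of the unfractionated files.

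The series holds 11 Smart-seq2 libraries (full-length cDNA made from very few cells) of haematopoietic stem cells taken from the liver on postnatal day 0, from wild-type animals of the C57BL/6 strain. Each was made from 100 to 200 cells sorted as lineage-negative, positive for Sca1, cKit and CD150, and negative for CD48. The sorted cells were further gated on forward scatter area, a flow cytometry reading commonly used for cell size, to give 4 libraries labelled FSC-A High and 3 labelled FSC-A Low. For the remaining 4, labelled WT HSC and called unfractionated below, the labels name no scatter gate. All groups share genotype, strain, tissue, age and surface phenotype, no agent was given, and the labels state neither the number of animals nor a batch, so the p-values rest on a spread between libraries that may be technical.

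The surface proteins of the sort are the products of 4 of these genes. Ly6a encodes Sca1, Kit encodes cKit (CD117), Slamf1 encodes CD150 and Cd48 encodes CD48. In the mouse, Sca1 and cKit mark the stem and multipotent progenitor pool, and within it CD150 without CD48 enriches for stem cells. The receptor made from Flt3 is known for multipotent progenitors that have lost long-term repopulating ability, and the protein C receptor made from Procr is known for the opposite end, the stem cells. Surface protein and transcript need not move together, and only transcripts were measured here.

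The gated values were taken to be RPKM, reads scaled to transcript length and library depth, a unit inferred from the values and named in no header. On that reading they are shares of a library and not amounts per cell, and levels of different genes can be compared. The depth of the gated libraries, estimated from the spacing of their low values, was 65.4 M to 85.2 M reads for FSC-A High and 69.5 M to 98.2 M for FSC-A Low. Between 21307178 and 30889443 reads were recovered from the unfractionated files, which come in another unit, so they were not compared with the gated ones. Among the unfractionated libraries, replicate 4 stood apart: its Spearman correlation over genes with the other 3 was 0.923 to 0.924, against 0.953 to 0.956 among those 3, and it had reads in 11384 genes against 12909 to 13368. Of 12 HSC marker genes, all passed 1 RPKM in at least 3 gated libraries. Of the marker genes of other cells, Cd79a, Ebf1 and Pax5 (B cells), Cd3e, Cd3d, Cd4 and Cd8a (T cells), Adgre1 and Csf1r (macrophages), S100a8 and S100a9 (granulocytes), Alas2 (erythroid cells), Cdh5 (endothelium) and all 6 mast cell genes stayed under 1 RPKM in every gated library. Other genes of the same lists did not. Hbb-bt (erythroid), Prtn3, Mpo and Ltf (granulocyte), Cd79b (B cell) and Cd68, C1qa, C1qb and C1qc (macrophage) passed the filter on low values. So did Pecam1 and Clec4g (endothelial) and Klrb1c (T and NK cell). Klrb1c, which was not called, passed only through FSC-A Low, at 1.40, 1.23 and 1.25 RPKM, against at most 0.850 RPKM in FSC-A High. No hepatocyte gene was under 1 RPKM in all libraries.

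Kit was the member that differed between the gates. It encodes the receptor tyrosine kinase for stem cell factor, on which HSCs depend for survival and self-renewal. Kit lies on chromosome 5 from 75574987 to 75656722 (GRCm38, the assembly that mm10 denotes). Its level was 22.0, 18.6, 17.9 and 25.2 RPKM in FSC-A High replicates 1 to 4, and 61.2, 54.0 and 48.8 RPKM in FSC-A Low replicates 1 to 3. Every FSC-A Low library therefore lay above every FSC-A High library, with a gap between 25.2 and 48.8 RPKM. The means were 20.9 ± 3.37 RPKM (SD, n = 4) and 54.7 ± 6.22 RPKM (SD, n = 3).

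Fitted across all genes with limma on log2(RPKM + 1), Kit was lower in FSC-A High by a log2 difference of -1.35 (SE 0.19, 95% interval -1.77 to -0.93, adjusted p = 0.000331), which is 2.55-fold on that scale. Of the 10619 genes tested, 11.7% were called lower in FSC-A High, 15.6% higher and 27.3% in either direction at an adjusted p below 0.05, and in 34.9% the libraries of the 2 groups did not overlap. Of the 8 members tested, 1 was called, Kit, and 1 had groups that did not overlap, again Kit. This share is no greater than that of all genes. Only 398 of the 10619 genes, 3.75%, had a log2 difference as low as or lower than that of Kit.

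Kit has the longest transcript of the members, 5241 nucleotides, against a median of 2544 over the genes tested, and long transcripts tended to be lower in FSC-A High (a Spearman's rho of -0.42 over 10460 genes, and genes are no independent replicates). After a smooth trend over transcript length and GC content had been subtracted in each library, Kit had a log2 difference of -0.98 (adjusted p = 0.00114), while 8.38% of genes were called lower. Kit stayed called in all 19 alternatives run, at -1.65 to -0.98 and adjusted p values of 0.000126 to 0.00411. In a whole library of many cells, fewer cells with a transcript and less of it per cell cannot be told apart.

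**Figure D1:**
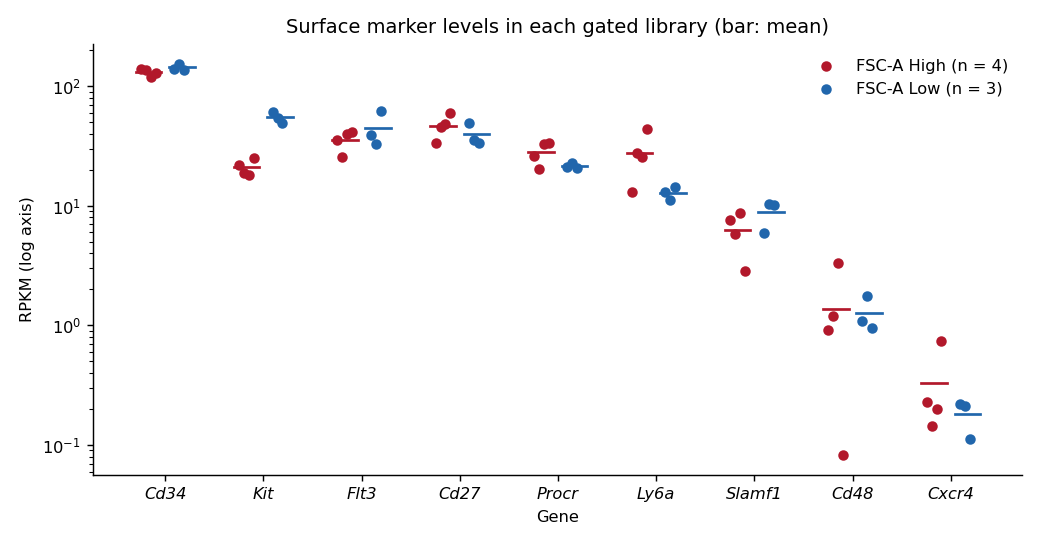
RPKM (log axis) of the 9 surface marker genes in each gated library, with FSC-A High in red (4 libraries), FSC-A Low in blue (3 libraries) and the group mean as a bar. Kit is the one gene whose groups do not overlap, at 17.9 to 25.2 RPKM in FSC-A High and 48.8 to 61.2 RPKM in FSC-A Low.

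A ratio taken within a library does not depend on scaling between libraries. Kit was set against Cd34, the member with the highest and most even level, a choice made after the values were seen and so given without a test. The ratio of Kit to Cd34 was 0.158, 0.135, 0.151 and 0.197 in FSC-A High replicates 1 to 4 and 0.440, 0.350 and 0.359 in FSC-A Low replicates 1 to 3. The groups did not overlap in this ratio either. In the order of the members by level, Kit stood second in FSC-A Low, after Cd34, and sixth in FSC-A High, after Cd34, Cd27, Flt3, Procr and Ly6a.

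The deposited files list 2 Kit transcripts, which differ within the coding sequence by an in-frame insert of 12 bases known to give a pair of receptor isoforms that differ next to the membrane. The stretch is shown because it is all that separates them apart from their 5′ ends. Sequences are from the GENCODE M21 transcripts of GRCm38 that carry the same RefSeq identifiers, 5′ to 3′, with the insert in capitals.
Kit without insert: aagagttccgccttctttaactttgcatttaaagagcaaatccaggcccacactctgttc
Kit with insert: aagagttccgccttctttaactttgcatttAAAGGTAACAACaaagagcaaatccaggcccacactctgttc
The lower of the 2 deposited values was 0.997 of the higher in all 7 gated libraries. One pool of reads divided by a pair of fixed lengths gives such a constant ratio, so the files do not separate the isoforms, and the Kit value stands for both. The GENCODE lengths, 5214 and 5241 nucleotides, do not give this ratio, since the transcript with the higher mean is the longer one. The lengths behind the deposited values are not known. The log2 difference was -1.35 for either transcript.

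Ly6a, the other positive marker of the stem and progenitor pool, had the second-largest difference and went the other way. The gene makes Sca1, a small protein held in the membrane by a lipid anchor, and lies on chromosome 15 from 74994877 to 74998031. Its level was 12.9, 27.6, 25.3 and 43.6 RPKM in FSC-A High replicates 1 to 4, and 12.9, 11.2 and 14.4 RPKM in FSC-A Low replicates 1 to 3. FSC-A High replicates 2 to 4 lay above all FSC-A Low libraries, and replicate 1 lay among them. The means were 27.4 ± 12.6 RPKM (SD, n = 4) and 12.8 ± 1.59 RPKM (SD, n = 3). The log2 difference was 0.92 (SE 0.33, 95% interval 0.22 to 1.63, limma adjusted p = 0.0518), so Ly6a did not pass.

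That outcome changed with 1 library and with some settings. Without FSC-A High replicate 1 the log2 difference of Ly6a was 1.23 (limma adjusted p = 0.00485), while it did not pass without any other single library, at adjusted p values of 0.0777 to 0.132. It also passed with a filter at 5 RPKM, with summed transcripts and with library quality weights, at adjusted p values of 0.0324 to 0.0442. The correction for length and GC content left 0.29 (adjusted p = 0.605), and the Ly6a transcript is short, at 955 nucleotides. Ly6a also belongs to a family of similar genes: 10.04% of its 50-base stretches occur in transcripts of other genes, mainly Ly6c1 and Ly6i, so its reads may have been split or lost in counting. Ly6c1 and Ly6c2, the relatives on the lists used here with such stretches, stayed under 1 RPKM in all gated libraries. For Kit, Slamf1, Cd48, Procr, Flt3, Cd27 and Cxcr4 no such stretch was shared, and for Cd34 4.24% were, all with Gm16897.

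Slamf1 and Cd48, which set the CD150-positive and CD48-negative sides of the sort, lie 61873 bases apart on chromosome 1, in a cluster of SLAM family genes. Slamf1 encodes a receptor that binds itself on neighbouring cells, and Cd48 encodes a lipid-anchored ligand of another SLAM receptor, CD244. Slamf1 (171767131 to 171801184) stood at 7.62, 5.79, 8.73 and 2.83 RPKM in FSC-A High and at 5.97, 10.4 and 10.1 RPKM in FSC-A Low, in the order of the replicates. The lowest and the highest library belonged to different gates, but the ranges overlapped widely. The log2 difference was -0.49 (SE 0.36, 95% interval -1.27 to 0.29, limma adjusted p = 0.344), which did not pass. Without FSC-A High replicate 4 it was -0.21.

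Cd48 (171681245 to 171705258) was present at a low level in all gated libraries. It stood at 0.907, 1.19, 3.32 and 0.0822 RPKM in FSC-A High and at 1.10, 1.75 and 0.946 RPKM in FSC-A Low, in the order of the replicates. The highest and the lowest of the 7 libraries were both FSC-A High, replicates 3 and 4, at an estimated 281 and 8.3 reads. Of the genes tested, 89.6% had a mean at or above that of Cd48 over the FSC-A High libraries, and 94.1% over the FSC-A Low ones. The log2 difference was -0.09 (SE 0.43, 95% interval -1.02 to 0.84, limma adjusted p = 0.899), a wide interval, and its sign turned without FSC-A High replicate 4 (0.23) or FSC-A Low replicate 2 (0.06). The length and GC correction moved it furthest, to -0.75 (adjusted p = 0.289).

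Slamf1 was above Cd48 in each of the 7 gated libraries. The log2 ratio of Slamf1 to Cd48, taken on RPKM + 1, was 2.18, 1.63, 1.17 and 1.82 in FSC-A High and 1.73, 2.05 and 2.51 in FSC-A Low. The group means, 1.70 ± 0.42 (SD, n = 4) and 2.10 ± 0.39 (SD, n = 3), differed by -0.40, about 1 SD of either group (two-sided exact permutation p = 0.286, adjusted over 3 ratios to 0.771; the smallest p that 35 splits allow is 0.0286). The added 1 weighs heavily in this ratio, since Cd48 ran from 0.0822 to 3.32 RPKM. On the plain values, 2.83 RPKM of Slamf1 and 0.0822 RPKM of Cd48, FSC-A High replicate 4 would have the highest ratio of the 7. With 0.5 added the difference was -0.34 (permutation test, adjusted p = 0.714), and a ratio with nothing added was not tested. A shift in this ratio between the gates was not detectable with these libraries.

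Procr and Flt3 stand for the stem cell and the multipotent progenitor side of the pool. Procr (chromosome 2, 155751125 to 155755478) stood at 26.1, 20.3, 32.6 and 33.6 RPKM in FSC-A High and at 21.1, 22.6 and 20.9 RPKM in FSC-A Low. FSC-A High replicates 1, 3 and 4 lay above all FSC-A Low libraries, and replicate 2 lay just below them. The log2 difference of Procr was 0.35 (SE 0.22, 95% interval -0.12 to 0.82, limma adjusted p = 0.261). Its estimate was 0.01 with the length and GC trend removed.

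Flt3 (chromosome 5, 147330741 to 147400489), the receptor tyrosine kinase for Flt3 ligand, stood at 35.1, 25.7, 39.6 and 41.4 RPKM in FSC-A High and at 38.8, 32.9 and 61.5 RPKM in FSC-A Low. It was thus well expressed after a sort that did not use Flt3, with FSC-A Low replicate 3 the highest. Its log2 difference was -0.29 (SE 0.24, 95% interval -0.81 to 0.23, limma adjusted p = 0.405). It was -0.03 without FSC-A Low replicate 3 and reached -0.47 without FSC-A Low replicate 2. The length and GC correction left -0.01 (adjusted p = 0.980).

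The remaining ratios between stem cell and progenitor markers did not separate the gates. The log2 ratio of Procr to Cd48 averaged 3.77 ± 0.90 over the FSC-A High libraries (SD, n = 4) and 3.33 ± 0.20 over the FSC-A Low ones (SD, n = 3), with a two-sided exact permutation p of 0.571 (adjusted 0.771). FSC-A High replicate 4, with its few Cd48 reads, was the highest at 4.998, and the difference between the gates, 0.44, was 0.03 without it. The log2 ratio of Slamf1 to Flt3 averaged -2.39 ± 0.72 (SD, n = 4) and, for FSC-A Low, -2.19 ± 0.54 (SD, n = 3) (two-sided exact permutation p = 0.771, adjusted 0.771). FSC-A High replicate 4 was again at the edge, at -3.47, against -2.07, -1.97 and -2.06 in replicates 1 to 3, and without it or without FSC-A Low replicate 2 the difference changed sign (0.16 and 0.11).

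**Figure D2:**
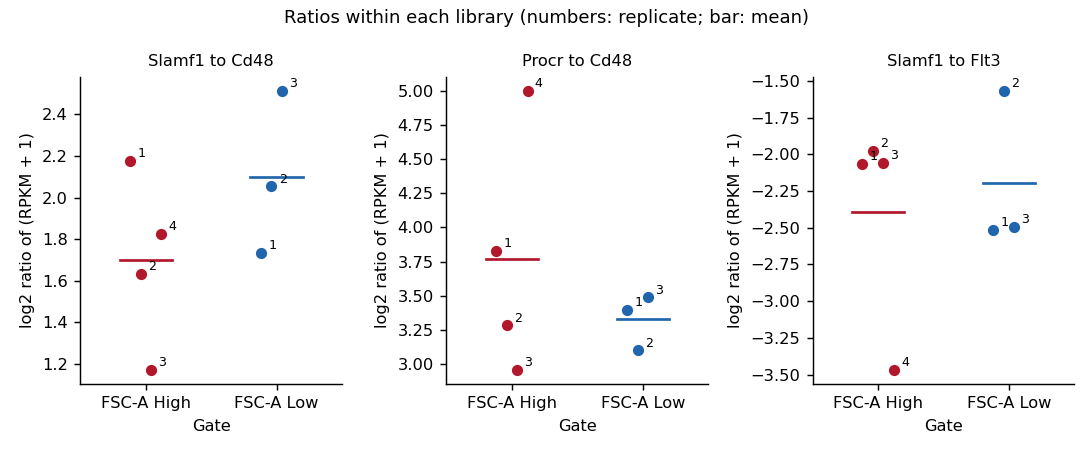
Log2 ratios of (RPKM + 1) within each gated library for Slamf1 to Cd48, Procr to Cd48 and Slamf1 to Flt3, with the replicate number beside each point and the group mean as a bar. The gates overlap in all 3 ratios, and FSC-A High replicate 4 is at the edge for Procr to Cd48 (4.998) and Slamf1 to Flt3 (-3.47).

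Cd34 encodes a sialomucin of blood stem and progenitor cells and vessels, which fetal and newborn HSCs carry and most adult mouse HSCs lack. It was the most abundant member, on chromosome 1 from 194938821 to 194961292. Cd34 stood at 139, 137, 119 and 128 RPKM in FSC-A High and at 139, 154 and 136 RPKM in FSC-A Low, and a mean as high or higher was found for 6.70% and 4.13% of the tested genes, respectively. The libraries lay close together, and the log2 difference was -0.13 (SE 0.13, 95% interval -0.42 to 0.16, limma adjusted p = 0.514). Scaling each library to its total of gene values moved it to -0.44 (adjusted p = 0.0223), a scaling that moved the median of all genes from -0.04 to -0.30, so relative to that median Cd34 shifted little.

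Cd27 encodes a receptor of the tumour necrosis factor receptor family that binds CD70. It lies on chromosome 6 from 125232620 to 125237136 and stood at 33.5, 45.3, 48.1 and 59.0 RPKM in FSC-A High and at 49.6, 35.7 and 33.6 RPKM in FSC-A Low. The 2 ranges nearly coincided at their lower end, and FSC-A High replicate 4 was the highest. The log2 difference was 0.22 (SE 0.22, 95% interval -0.25 to 0.69, limma adjusted p = 0.496). It turned to -0.32 after the length and GC correction and to -0.09 with libraries scaled to their totals. The corrected value rests on an uncertain length: the GENCODE entries for its 3 RefSeq transcripts run from 588 to 1559 nucleotides, while the lowest of their RPKM values was at least 0.953 of the highest in each library.

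Cxcr4 encodes the receptor for the chemokine CXCL12, which holds HSCs in the adult bone marrow niche. The gene lies on chromosome 1 from 128588199 to 128592299 and was close to silent. Its level was 0.227, 0.143, 0.200 and 0.744 RPKM in FSC-A High and 0.222, 0.213 and 0.111 RPKM in FSC-A Low, an estimated 14.0 to 114 reads. FSC-A High replicate 4 was highest and the other 6 libraries lay together. Cxcr4 was under 1 RPKM in every gated library and so was not tested. Its difference in mean log2(RPKM + 1) was 0.15, and 0.01 without FSC-A High replicate 4.

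**Figure D3:**
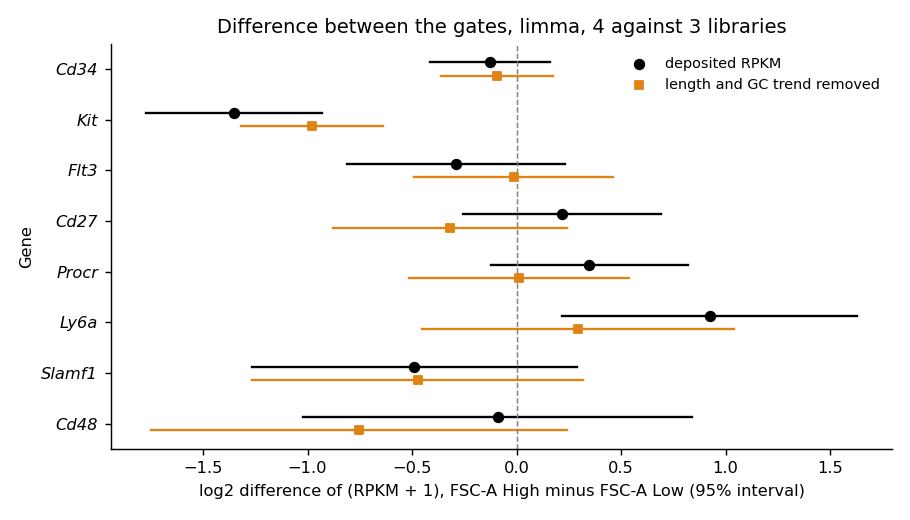
Log2 difference of (RPKM + 1) between FSC-A High and FSC-A Low for the 8 tested surface marker genes, with 95% intervals from limma, on the deposited values (black circles) and with the trend over transcript length and GC content removed (orange squares). The interval of Kit lies below 0 in both, that of Ly6a lies above 0 on the deposited values alone, and the intervals of the other 6 genes span 0 in both.

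By level, Cd34 was on top in both gates, with a range apart from all others. Cd27, Flt3, Procr, Ly6a and Kit followed in FSC-A High at means of 20.9 to 46.5 RPKM, and each of these overlapped its neighbours in that order. In FSC-A Low the order ran on from Kit at 54.7 RPKM through Flt3 and Cd27, which overlapped in turn, to Procr at 21.5 and Ly6a at 12.8 RPKM, which did not overlap their neighbours. Slamf1, Cd48 and Cxcr4 were the 3 lowest in both gates. In FSC-A High the ranges of Slamf1 and Cd48 overlapped, and so did those of Cd48 and Cxcr4, while in FSC-A Low none of these did.

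In the unfractionated HSCs, the values are CPM, reads as a share of the recovered library total, and were divided by transcript length to compare genes. Kit stood at 252, 202, 192 and 537 CPM in replicates 1 to 4, Ly6a at 78.7, 140, 171 and 126 CPM, and Slamf1 at 63.2, 63.5, 70.0 and 109 CPM. All 3 positive sort markers were thus well detected, with 1353 reads or more each, and Kit and Slamf1 were highest in replicate 4. Cd48 stood at 10.97, 28.9, 14.7 and 0.200 CPM, from 339, 616, 401 and 6 reads. The first 3 libraries held 9.25 to 24.4 CPM per kilobase of Cd48 and 23.5 to 26.0 CPM per kilobase of Slamf1, and replicate 4 held almost no Cd48. Per kilobase, the ratio of Slamf1 to Cd48 was 2.54, 0.967 and 2.09 in replicates 1 to 3 and 239 in replicate 4. In replicate 2, a library of cells sorted as CD48-negative, Cd48 transcript was therefore about as high as that of Slamf1.

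Cd34 and Cd27 varied least across the unfractionated libraries, with a ratio of highest to lowest of 1.37 and 1.36. Cd34 stood at 418, 425, 437 and 575 CPM and Procr at 123, 134, 136 and 208 CPM, both highest in replicate 4. Flt3 stood at 164, 78.1, 77.2 and 98.1 CPM, with replicate 1 the highest. Cd27 stood at 163, 197, 190 and 145 CPM, with replicate 4 the lowest. Cxcr4 stood at 2.30, 1.45, 0.662 and 2.27 CPM, from 18 to 71 reads.

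Over the 4 unfractionated libraries the order per kilobase was Cd27, Cd34, Ly6a, Procr, Kit, Flt3, Slamf1, Cd48 and Cxcr4, from 209 ± 29.0 to 0.926 ± 0.43 CPM per kilobase (SD, n = 4), and each gene overlapped the next. Without replicate 4 the order was the same, and Cd27 and Cd34, Procr and Kit, and Cd48 and Cxcr4 no longer overlapped. With the longest matched transcript, 1559 nucleotides, Cd27 would stand at 111 CPM per kilobase, below Cd34 and Ly6a. The mean of Kit was 296 ± 163 CPM (SD, n = 4) with replicate 4 and 215 ± 32.2 CPM (SD, n = 3) without it, and that of Cd48 was 13.7 ± 11.9 CPM (SD, n = 4) and 18.2 ± 9.46 CPM (SD, n = 3). The per-kilobase ratio of Kit to Cd34 was 0.282, 0.223 and 0.206 in replicates 1 to 3 and 0.437 in replicate 4.

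**Figure D4:**
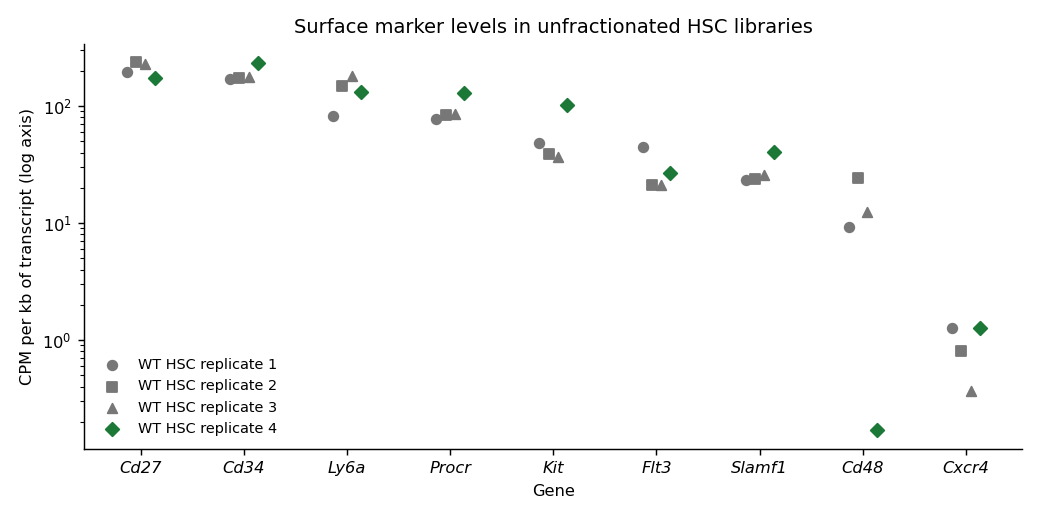
CPM per kilobase of transcript (log axis) of the 9 surface marker genes in the 4 unfractionated HSC libraries, 1 symbol per replicate, with replicate 4 in green. Replicate 4 is the highest for Kit, Slamf1, Procr and Cd34 and the lowest for Cd27 and for Cd48 (0.169 CPM per kilobase against 9.25 to 24.4).

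Other genes of the markers' families and pathways were taken from 5 lists. Of 12 SLAM family and adaptor genes in the files, Slamf1 and Cd48 among them, 5 passed the filter on low values (at least 1 RPKM in at least 3 libraries). None of the 5 passed the test with limma, where 27.3% of all tested genes did. At an unadjusted p below 0.05, 2 were lower. The median log2 difference was -0.79 against -0.04 over all genes. Upper-quartile scaling, scaling to totals and summed transcripts each gave 2 called lower, as against 1 with the correction for length and GC content. Cd84, a SLAM receptor that binds itself, stood at 3.62, 2.68, 4.53 and 6.19 RPKM in FSC-A High and 9.001, 10.2 and 6.15 RPKM in FSC-A Low. Its groups overlapped by a narrow margin, at -0.87 (limma adjusted p = 0.0648). It was called after the length and GC correction, at -1.34 (adjusted p = 0.0166), and without FSC-A High replicate 4, at -1.03 (adjusted p = 0.0415). The SLAM adaptor genes Sh2d1a and Sh2d1b1 were listed at 0 in all gated libraries.

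Among ligands, co-receptors and relatives, 4 of 14 genes passed the filter, 1 rose, none fell (1 at an unadjusted p below 0.05) and 3 did not pass, with a median of -0.09. Of all tested genes, 15.6% rose and 11.7% fell. The ligand genes Kitl, Cxcl12 and Cd70 were listed at 0 in all gated libraries, while Flt3l, the Flt3 ligand, averaged 10.9 ± 1.80 RPKM over the FSC-A High libraries (SD, n = 4) and 7.09 ± 2.09 RPKM over the FSC-A Low ones (SD, n = 3), which did not pass (limma adjusted p = 0.151). Ly6e, a relative of Ly6a, averaged 118 ± 46.1 RPKM in the FSC-A High libraries and 60.9 ± 2.88 RPKM in the FSC-A Low libraries (0.87, limma adjusted p = 0.0215). Its libraries did not overlap, from 68.1 RPKM upward in FSC-A High and up to 64.2 RPKM in FSC-A Low. That call ended without FSC-A High replicate 3 (adjusted p = 0.0525), FSC-A Low replicate 1 (0.0555) or FSC-A Low replicate 2 (0.0551), without a filter (0.117) and with libraries scaled to their totals (0.104).

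Of 34 other stem cell surface genes, 29 passed the filter, 3 rose, 11 fell and 15 did not pass, with a median of -0.15, where 15.6% of all tested genes rose and 11.7% fell. Of the 11, Acvr1 passed the filter only through the FSC-A Low libraries. Without FSC-A High replicate 1 or 2, or FSC-A Low replicate 2 or 3, 7 fell, and without FSC-A Low replicate 2, 5 rose. Ptprc, which encodes the pan-leukocyte phosphatase CD45, fell by 1.93 on the log2 scale, from 15.9 ± 5.63 to 3.28 ± 0.175 RPKM, and Adgrg1, an adhesion receptor of HSCs, by 1.21. Cd9, a tetraspanin, rose, at 93.3 ± 15.4 against 31.5 ± 3.43 RPKM (1.53, limma adjusted p = 7.07e-05). After the length and GC correction, 1 rose and 6 fell, where 980 of 10460 genes rose and 8.38% fell. Ptprc (-1.73), Adgrg1 (-0.81) and Cd9 (0.97) were still called.

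Of 25 progenitor surface genes, 15 passed the filter, 1 rose, none fell (3 at an unadjusted p below 0.05) and 14 did not pass, with a median of -0.36. The shares over all tested genes were 15.6% that rose and 11.7% that fell. Upper-quartile scaling and scaling to totals each gave 3 that fell. The one that rose was Notch2, a receptor for Notch ligands, at 7.69 ± 1.97 against 2.28 ± 0.262 RPKM (1.39, limma adjusted p = 0.0047). Of 37 names on the list of Kit, Flt3 and Cxcr4 signalling genes, 36 were in the files and 33 passed the filter. Of these, 2 rose, 11 fell and 20 did not pass, with a median of -0.50, beside the same 15.6% and 11.7% of all tested genes. Of the 11, Cbl passed the filter only through the FSC-A Low libraries. The length and GC correction left 2 that rose and 6 that fell, where 980 of 10460 genes rose and 8.38% fell. Without FSC-A Low replicate 1 and with no such correction, 6 fell. Without FSC-A High replicate 3 or 4, or without any one FSC-A Low library, 1 rose.

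Among the signalling genes, Cbl, a ubiquitin ligase that sends activated Kit to degradation, stood at 0.980, 0.608, 0.861 and 0.309 RPKM in FSC-A High and 2.68, 8.71 and 3.88 RPKM in FSC-A Low. It passed the filter only through the FSC-A Low libraries, so its call is no independent evidence. Sh2b3, an adaptor that limits Kit signals, averaged 13.5 ± 3.16 against 41.8 ± 17.9 RPKM (-1.49), and Dok2, an adaptor that opposes kinase signalling, 59.1 ± 18.8 against 168 ± 29.9 RPKM (-1.52). Shc1, Pik3cd, Pik3cg and Sh2b1, which carry signals forward from such receptors, also fell, at log2 differences of -0.85, -0.94, -0.98 and -1.03. Others on the list that carry signals forward, Grb2, Gab1, Gab2, Pik3r1 and Ptpn11, did not pass. Of further restraints, Socs1 fell (-1.50), while Cblb, Ptpn6 and Dok1 did not pass. After the length and GC correction Shc1, Pik3cd, Pik3cg and Sh2b1 were no longer called (limma adjusted p values of 0.073 to 0.089). Sh2b3, Dok2 and Socs1 still were, and so was Cbl, for which the limit of the filter holds here too. Genes that carry signals forward and genes that restrain them were not compared with each other. In the other direction, Siva1, whose product binds the CD27 receptor, rose, at 304 ± 51.0 against 161 ± 16.9 RPKM (0.90, limma adjusted p = 0.000928). The lists were chosen with results of these data known, so their counts are a description.

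**Figure D5:**
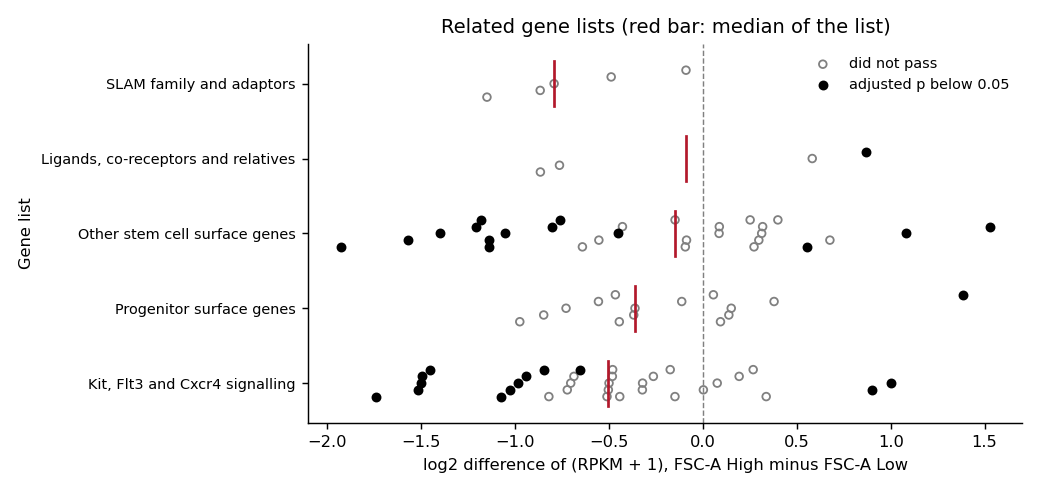
Log2 difference of (RPKM + 1) between FSC-A High and FSC-A Low for the tested genes of 5 related lists, with filled points for genes at an adjusted p below 0.05, open points for those that did not pass and a red bar at the median of the list. The signalling and the other stem cell surface lists each hold 11 genes that fell, against 2 and 3 that rose, where 11.7% of all tested genes fell and 15.6% rose. After the length and GC correction 6 fell in each list, where 8.38% of all genes did. Among the genes that fell, Cbl (signalling) and Acvr1 (other stem cell surface) passed the filter only through the FSC-A Low libraries.

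Of the HSC markers that are not members, Hlf, Mecom, Meis1 and Tek fell in FSC-A High, where 11.7% of all tested genes did, and Fgd5, Mllt3, Gfi1b and Hoxa9 did not pass. The summed level of 8 erythroid genes was 85.8 to 220 RPKM in FSC-A High and 56.3 to 81.5 RPKM in FSC-A Low, nearly all of it Hbb-bt, while Hba-a1, Hba-a2, Hbb-bs and Alas2 were under 1 RPKM in all libraries. Only 1 erythroid gene was tested, and it was called higher. The summed level of 7 megakaryocyte genes was 63.1 to 98.4 RPKM and 49.3 to 62.8 RPKM, mostly Gp9 and Pf4, with Gp6 at 0. Of the 4 tested, none was called higher and 1 was called lower, beside 15.6% and 11.7% of all tested genes. Gp1ba went the other way from the sum, at 0.236 to 1.11 against 1.85 to 4.63 RPKM, as did the mean of Itga2b (3.13 against 4.96 RPKM). The erythroid and megakaryocyte sums did not overlap between the gates, nor did the libraries in 34.9% of all tested genes. Hepatocyte genes summed to 58.8 to 76.1 RPKM and 54.7 to 79.1 RPKM. Granulocyte genes summed to 103 to 148 RPKM and 100.0 to 103 RPKM, nearly all Prtn3, and B cell genes to 18.04 to 57.3 RPKM and 18.6 to 32.1 RPKM, nearly all Cd79b. Macrophage genes summed to 14.8 to 33.5 RPKM and 10.2 to 18.2 RPKM, with Cd68 the highest gene in every library, and endothelial genes to 3.61 to 14.1 RPKM and 10.2 to 19.3 RPKM, mostly Pecam1 outside FSC-A High replicate 3. Of 2 endothelial genes tested, 1 was called lower. None of the tested hepatocyte, granulocyte, B cell and macrophage genes was called. The part of these in the difference of Kit was not tested.

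The genes whose profile over the 7 gated libraries was most like that of a member were sought among 4117 or 4118 tested genes with a mean log2 value of at least 4. With a search that wide over 7 libraries, which share group, depth and composition, high correlations are common, and they are given as a description. Nearest to Kit were Rsrp1 (Pearson's r 0.991), Fcgrt (0.990) and Tmbim6 (0.987), which were all called lower in FSC-A High, at log2 differences of -1.26, -1.59 and -1.49. Nearest to Ly6a were Polr3k (0.995), Mdh1 (0.990) and its relative Ly6e (0.988). Nearest to Slamf1 was Zcrb1 (0.965), to Cd48 Cep63 (0.948), to Procr Dbf4 (0.975), to Cd34 Fnta (0.972), to Flt3 Cmpk1 (0.936) and to Cd27 Mir8113 (0.974). Among the members themselves, the highest correlations were 0.77 for Ly6a with Cd27 and 0.73 for Slamf1 with Cd48, and the lowest was -0.81 for Slamf1 with Cd27.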

How the data were processed

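Libraries were grouped by their titles. Each gated file, as deposited by the authors, lists 33984 RefSeq transcripts with a value taken to be RPKM. No header names the unit, which was inferred from the values, and RPKM and FPKM cannot be told apart. Each unfractionated file, as deposited by the authors, lists 1 signal value for every gene symbol, which became whole reads (100% within 0.01) when divided by the smallest value above 0, and these reads were expressed as CPM. STAR, DESeq2 and mm10 are named, without roles or versions, per the submitters' processing notes. The gated depth is an estimate. Reads without molecular identifiers are not independent molecules.

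Transcripts were named by RefSeq identifier (NCBI's GRCm38.p6 table, 32263), else by symbol (1328) or the name in the file (393). Lengths are of GENCODE M21 transcripts. Genes reaching 1 RPKM in 3 or more of the 7 gated libraries were fitted on log2(RPKM + 1), which understates changes of low genes, with limma 3.58.1 in R 4.3.3 (trend, group only, Benjamini-Hochberg over all tested genes, threshold 0.05). These fits were first tested on simulated data with 200 changed genes. Of log2 changes of size 1, 66% were recovered, and of size 2, 100%, so changes of size 1 or less can be missed. Ratios were compared with exact permutation tests over the 35 splits.

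Alternatives were other scalings (edgeR 4.0.16 for TMM), pseudocounts 0.5 and 5, other filters, summed transcripts, a spline (5 degrees of freedom each) over length and GC content, quality weights, a replicate block and leaving out each library. Leaving out unfractionated libraries, and recomputing list counts, were chosen after seeing the data. The members and lists were chosen with earlier results of these data known. Named were all members, up to 4 called genes of each list with the smallest p (2 with the highest mean where none was called), and the genes most like a member. Some genes that the rule or the marker lists would name are not reported here. Genes named beyond that rule (marker genes, genes listed at 0, Flt3l, Acvr1 and other signalling genes) were chosen after their values were seen. Python 3.11.15 with scipy 1.17.1 and matplotlib 3.10.9 served for tables and plots.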

Additional observations from a re-analysis of the deposited data

Results flagged for a closer look

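Among 21 sets of 4 libraries checked for a library far from the other 3, 5 held one. Chance gives about 1 in 20 for a single set. The sets are genes and ratios of the same libraries, so they are not independent and no excess can be read from the count. In the unfractionated HSCs, replicate 4 was far above the others for Slamf1 (109 CPM), Procr (208 CPM) and Cd34 (575 CPM). It is also the library with the lowest correlation to the rest. In FSC-A High, replicate 4 was far above the others for Cxcr4 (0.744 RPKM) and far below them for the log2 ratio of Slamf1 to Flt3 (-3.47). The source of these values was not tested.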

How the results depend on the processing

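Kit was called lower in all 19 alternatives run, at -1.65 to -0.98, and at -1.42 to -0.96 relative to the median of all genes. Scaling to the library total gave 978 genes higher and 2272 lower (30.1% of calls higher, against 57.1% of 1657 and 1245 on the deposited scale), upper-quartile scaling moved the split to 49.6%, and the length and GC correction gave 980 higher and 877 lower. With totals as the scale 2 members were lower, Kit and Cd34 (-0.44, adjusted p = 0.0223), and Cd27 turned to -0.0877; with the length and GC correction Cd27 turned to -0.32 and the log2 ratio of Slamf1 to Cd48 to 0.28. Ly6a passed, so that 1 member was higher, with a filter at 5 RPKM (0.92, adjusted p = 0.0324), summed transcripts (0.96, 0.0442) and quality weights (0.93, 0.0403). Cd48, never called, turned to 0.00389 with a pseudocount of 5, to 0.10 with quality weights and to 0.23 with the replicate block, which leaves out FSC-A High replicate 4; leaving out that library alone also gave 0.23. Leaving out each library gave 1302 to 1628 genes higher, 879 to 1152 lower, 0 to 1 members higher, -1.44 to -1.27 for Kit, 0.67 to 1.23 for Ly6a (adjusted p 0.00485 without FSC-A High replicate 1), -0.44 to 0.23 for Cd48 and -0.36 to 0.16 for the log2 ratio of Slamf1 to Flt3. The causes were not tested. Whether replicate numbers pair the libraries could not be settled, since so few pairs exist. Correlations of same-numbered deviations were -0.03 to 0.06, and 1 of 3 FSC-A Low libraries correlated best with its own number. With the replicate block on replicates 1 to 3, 1451 genes were higher, 987 lower and Kit was at -1.44 (limma adjusted p = 0.00123). With filters at 5 RPKM Cd48 was not tested, and Cxcr4 had no corrected or weighted value. The values of Cd48 and Cxcr4 rest on few reads, an estimated 8.3 to 281 and 14.0 to 114. The part of depth in this was not tested.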
